A study of Homo sapiens with 3 samples.

Results

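Iron storage, iron uptake and heme metabolism were followed through 10 genes in ribosome footprints of 3 human lung cell lines, measured in a study that searched for new proteins made from RNAs thought to be non-coding. The members were taken by symbol from the deposited tables and were FTL, FTH1, TFRC, SLC11A2, SLC40A1, IREB2, ACO1, HMOX1, BLVRB and FECH, which are 10 of the 19267 coding genes. They held 21 of the 47239 transcript rows, of which 19 carried a coding (NM) and 2 a non-coding (NR) RefSeq label, and all 10 genes had reads in every library. HBE is a human bronchial epithelial line, and A549 and H1299 are lines from non-small cell lung cancer. All were grown in complete DMEM medium under normal conditions, and the labels name no added agent. Ribosome footprints are the short stretches of mRNA that ribosomes protect from nuclease, so a count of them follows both the amount of an mRNA and how densely it is occupied, which cannot be told apart here because the RNA libraries of the study were not analysed. There was 1 library per line, so each ratio below compares 2 libraries and not 2 conditions, with no replicate check and no p-value, and its 95% interval covers counting error only.

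Cells keep iron in ferritin, a hollow shell built from heavy (FTH1) and light (FTL) chains, take it up as transferrin-bound iron through the transferrin receptor (TFRC), and export it through ferroportin (SLC40A1). The iron regulatory proteins IRP1 (ACO1) and IRP2 (IREB2) bind a hairpin in these mRNAs, the iron-responsive element or IRE, when iron is scarce. A bound IRE in the 5′UTR blocks translation of the ferritin and ferroportin mRNAs, whereas bound IREs in the 3′UTR stabilise the TFRC mRNA. Heme is completed by ferrochelatase (FECH) and opened by heme oxygenase 1 (HMOX1). Biliverdin reductase B (BLVRB) reduces biliverdin and flavins, but the main biliverdin reductase of adult tissues is BLVRA. HMOX1, FTL, FTH1 and BLVRB are also known as targets of the stress-responsive transcription factor NRF2.

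The IRE sequences are shown because they lie in the 5′UTR of the storage and export mRNAs and in the 3′UTR of the uptake mRNAs, and a match was also found in the 3′UTR of the regulator IREB2. They were found with the pattern of an unpaired C, a stem of 5 base pairs and a CAGTGN loop in GENCODE version 44 transcripts on GRCh37, and each equals the genome. Capitals mark the unpaired C and the loop.
FTH1 5′UTR, chr11:61735046-61735074, minus strand: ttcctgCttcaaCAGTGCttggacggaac
FTL 5′UTR, chr19:49468592-49468620, plus strand: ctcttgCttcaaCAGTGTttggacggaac
SLC40A1 5′UTR, chr2:190445387-190445415, minus strand: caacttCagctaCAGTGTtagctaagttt
TFRC 3′UTR, chr3:195777850-195777878, minus strand: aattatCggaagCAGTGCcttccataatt
TFRC 3′UTR, chr3:195777446-195777474, minus strand: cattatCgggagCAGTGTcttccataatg
TFRC 3′UTR, chr3:195777381-195777409, minus strand: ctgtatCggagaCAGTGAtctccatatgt
TFRC 3′UTR, chr3:195777334-195777362, minus strand: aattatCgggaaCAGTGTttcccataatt
SLC11A2 3′UTR, chr12:51382051-51382080, minus strand: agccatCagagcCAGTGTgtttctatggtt
IREB2 3′UTR, chr15:78793311-78793340, plus strand: catttgCtttcaCAGTGAtgagtgagagga
The ferritin elements lie in the first exons of their genes and share 26 of 29 bases. The strict pattern was found in the 5′UTR of 18 of 19528 coding genes, which is 0.0922%, and in the 3′UTR of 121, which is 0.620%. The SLC11A2 and IREB2 sequences have 1 extra base in the stem and were matched only when that was allowed, a change made after the first search, under which 1.19% of coding genes had a match in the 3′UTR. A match is a description of the letters and not a measurement of binding.

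The libraries had 43580281 (HBE), 38268527 (A549) and 35751992 (H1299) mapped reads, of which 79.2 to 81.8% lay on NM rows. Levels are given as reads per 1000000 NM reads (RPM), summed over the rows of a gene, with an exact 95% Poisson interval. The 10 NM rows with most reads took 38.9% of NM reads in HBE and 31.7% and 31.4% in A549 and H1299, and the median coding gene was 0.35 (A549) and 0.38 (H1299) higher on the log2 scale than in HBE. A ratio was called when its interval lay wholly beyond 2, in coding genes with at least 20 reads over both libraries. The labels of the lines were set beside cell type markers. Of 5 basal epithelial genes, 4 were above the 95th percentile of olfactory receptor rows in HBE, against 1 in A549 and 0 in H1299, and VIM had 124, 15327 and 43694 reads in HBE, A549 and H1299. Of 6 alveolar type II genes, the cell type A549 is often used to model, only 1 was above that percentile in A549. This was SFTPD, which had more reads in HBE (5213) than in A549 (1659), so these markers did not set A549 apart.

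The ferritin chains differed most between the lines in absolute level. FTL, the light chain (chr19:49468566-49470136), had 2085 (HBE), 26029 (A549) and 1953 (H1299) reads, or 60.4 RPM (57.9 to 63.1), 831 RPM (821 to 842) and 68.6 RPM (65.6 to 71.7). FTH1, the heavy chain with ferroxidase activity (chr11:61727190-61735106), had 16672, 18193 and 2040 reads, or 483 RPM (476 to 491), 581 RPM (573 to 590) and 71.6 RPM (68.6 to 74.8). The light chain was therefore high in A549 alone, and the heavy chain was high in HBE and A549 and low in H1299. By reads, FTL ranked 2066 (HBE), 86 (A549) and 1968 (H1299) among coding genes. FTH1 ranked 149, 137 and 1865.

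FTL was 13.8 times as high in A549 as in HBE (interval 13.2 to 14.4, log2 ratio 3.78), and 12.1 times lower in H1299 than in A549 (11.6 to 12.7, log2 ratio -3.60). Between H1299 and HBE its ratio was 1.13 (1.07 to 1.21), and this sign turned under other scalings, with log2 ratios of 0.18 here, -0.18 with TMM factors and -0.19 with median-of-ratios factors. FTH1 was 6.75 times lower in H1299 than in HBE (6.44 to 7.07, log2 ratio -2.75) and 8.11 times lower than in A549 (7.75 to 8.50, log2 ratio -3.02). Between A549 and HBE its ratio was 1.20 (1.18 to 1.23), with log2 ratios of 0.27 here, -0.07 with TMM factors and -0.08 with median-of-ratios factors. Of the coding genes, 99.6% had a lower A549 to HBE ratio than FTL, and 1.37% a lower H1299 to HBE ratio than FTH1.

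Ferritin subunits assemble in proportions that differ between tissues, and the ratio of the chains within a library does not depend on scaling between libraries. FTL reads per FTH1 read were 0.125 (0.119 to 0.131) in HBE, whereas A549 had 1.43 (1.40 to 1.46) and H1299 had 0.957 (0.899 to 1.02). HBE was rich in heavy-chain footprints, A549 had more light-chain footprints, and in H1299 the chains could not be separated by counting error. The ratio in A549 came with a high FTL, and that in H1299 with a low FTH1. The coding sequences of the chains differ little in length, and per coding length the ratio in A549 was 1.496.

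Ferritin has many processed pseudogenes, and a footprint that matches several rows is counted on the row the authors' mapping chose. The ferritin pseudogene rows with reads were FTH1P18 with 17, 21 and 21 reads in HBE, A549 and H1299, FTH1P3 with 44, 39 and 19, and FTLP10 with 68, 36 and 31. Together they equalled 0.688%, 0.217% and 1.78% of the FTL and FTH1 reads. These rows were small beside the differences in ferritin, and reads on pseudogenes outside the RefSeq RNA set were not analysed here.

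**Figure D1:**
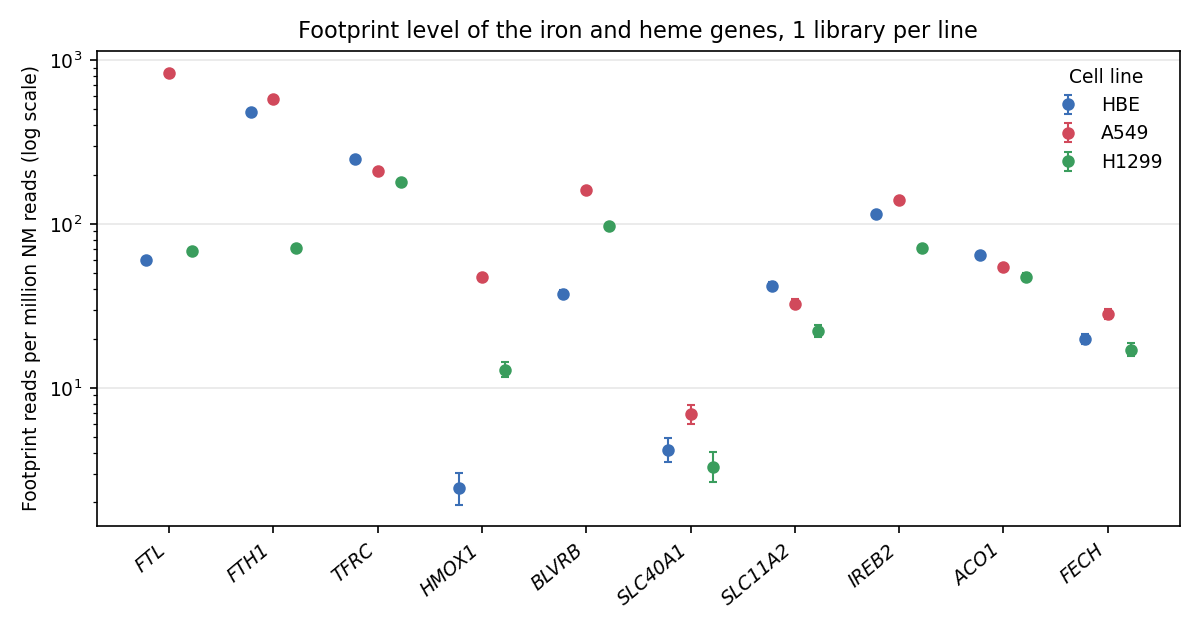
Footprint level of each of the 10 genes in HBE, A549 and H1299, in reads per 1000000 NM reads on a log axis; points are the single library of a line and bars are 95% Poisson intervals. FTL stands out in A549 at 831 RPM, FTH1 is low in H1299 at 71.6 RPM, and TFRC stays between 181 and 249.7 RPM.

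TFRC, which brings transferrin-bound iron into the cell (chr3:195739382-195809024), was not called in any comparison. It had 8615 (HBE), 6613 (A549) and 5149 (H1299) reads, or 249.7 RPM, 211 RPM and 181 RPM. Its ratio was 0.846 (0.819 to 0.874) in A549 against HBE, 0.724 (0.699 to 0.750) in H1299 against HBE and 0.856 (0.825 to 0.888) in H1299 against A549. All 3 intervals excluded equality, and none reached the 2-fold threshold. With TMM factors it was 1.49 times lower in A549 than in HBE (1.45 to 1.54) and 1.77 times lower in H1299 than in HBE (1.71 to 1.84), also not called. Of its 2 rows, NM_003234 held nearly all reads, with 8571, 6558 and 5111.

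SLC11A2 (DMT1), the divalent metal transporter that moves iron out of endosomes (chr12:51373184-51422349), had 1449 (HBE), 1023 (A549) and 634 (H1299) reads, or 42.0, 32.7 and 22.3 RPM. It was thus highest in HBE and lowest in H1299, in the same order as TFRC. The ratio of H1299 to HBE was 0.530 (0.482 to 0.582) and was not called. With TMM factors it was 2.42 times lower (2.20 to 2.66), which passed the call rule. In H1299 its main row had 4.30 RPKM, under the 95th percentile of 4.89 for olfactory receptor rows in that library, a comparison described with SLC40A1. RPKM divides by the whole transcript length, and 1683 of 4132 nt of the gene's reference transcript are coding. Long UTRs lower such a value, so the comparison does not show that SLC11A2 was at background. The gene has 9 rows with 2 transcript ends, and only the end at chr12:51379775 keeps the IRE printed above. The 6 rows of that end held 173, 85 and 47 reads in HBE, A549 and H1299, which is 11.9%, 8.31% and 7.41% of the gene's reads. The 3 rows that end at chr12:51373566, without a match to the IRE pattern, held 1276, 938 and 587 reads, and nearly all of these were on NM_001174127. Most exons are shared between the rows, so these shares follow how the mapping placed shared footprints and are not a measure of isoform use.

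SLC40A1 (ferroportin), the known exporter of iron (chr2:190425316-190448484), was the lowest member in 2 of the 3 libraries. It had 144 (HBE), 216 (A549) and 94 (H1299) reads, or 4.17 RPM (3.52 to 4.91), 6.90 RPM (6.01 to 7.88) and 3.30 RPM (2.67 to 4.04). The ratio of A549 to HBE was 1.65 (1.33 to 2.06), that of H1299 to HBE was 0.791 (0.603 to 1.03), and H1299 was 2.09 times lower than A549 (1.63 to 2.69). None of these was called, and HBE and H1299 did not differ beyond counting error.

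Such low counts were set beside 379 rows of olfactory receptors, which lung cells are not known to use, a comparison added after the members' values had been seen. The median RPKM of these rows was 0.461 (HBE), 0.688 (A549) and 0.644 (H1299), and their 95th percentile was 3.34, 4.97 and 4.89. RPKM divides by the whole transcript length, so rows with long UTRs come out lower, and this was not adjusted for. The main row of SLC40A1 had 0.977, 1.67 and 0.778 RPKM, above 79.7%, 84.4% and 58.8% of the olfactory rows and below the 95th percentile in all 3 lines. On this measure its footprints were within the range of genes these lines should not translate, and its level in H1299 was near the middle of that range.

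The iron regulatory proteins were not called in any comparison. IREB2, or IRP2, which is degraded when iron is plentiful (chr15:78729773-78793795), had 3967 (HBE), 4368 (A549) and 2020 (H1299) reads, or 115, 139.5 and 70.9 RPM. ACO1, which is IRP1 without and cytosolic aconitase with its iron-sulfur cluster (chr9:32384601-32454767), had 2245, 1703 and 1354 reads, or 65.1, 54.4 and 47.5 RPM. IREB2 was 1.97 times lower in H1299 than in A549 (1.87 to 2.07), close to the threshold and not called, and its ratio of H1299 to HBE was 0.617 (0.584 to 0.651). Between A549 and HBE the IREB2 ratio was 1.21 (1.16 to 1.27), and its log2 ratio of 0.28 turned to -0.06 with TMM and -0.07 with median-of-ratios factors. ACO1 ratios lay between 0.731 (0.683 to 0.782) for H1299 against HBE and 0.874 (0.813 to 0.939) for H1299 against A549. IREB2 had more reads than ACO1 in every library, with ratios of 1.77 (HBE), 2.56 (A549) and 1.49 (H1299), and also more per coding length, at 1.63, 2.37 and 1.38. Per length of the whole transcript the order turned in HBE and H1299, at 0.988, 1.43 and 0.834.

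HMOX1, the inducible enzyme that opens the heme ring and releases its iron (chr22:35776354-35790207), had the largest ratio between lines of the 10 genes. It had 84 (HBE), 1478 (A549) and 368 (H1299) reads, or 2.43 RPM (1.94 to 3.01), 47.2 RPM (44.8 to 49.7) and 12.9 RPM (11.6 to 14.3). The order was A549, H1299 and HBE, with intervals that did not overlap. HMOX1 was 19.4 times as high in A549 as in HBE (15.6 to 24.5, log2 ratio 4.27), 5.31 times as high in H1299 as in HBE (4.18 to 6.81, log2 ratio 2.40) and 3.65 times lower in H1299 than in A549 (3.26 to 4.11, log2 ratio -1.87). In HBE its row had 1.20 RPKM, below the 95th percentile of olfactory receptors, so the denominator of the first ratios was within the background range, whereas 24.0 RPKM in A549 and 6.41 in H1299 were above it.

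HMOX2, the constitutive heme oxygenase, had 1350 (HBE), 871 (A549) and 1449 (H1299) reads. HMOX1 reads per HMOX2 read were 0.0622 (HBE), 1.70 (A549) and 0.254 (H1299). HMOX1 thus exceeded HMOX2 in A549 alone.

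BLVRB, which reduces biliverdin and flavins (chr19:40953672-40971671), had 1294 (HBE), 5068 (A549) and 2786 (H1299) reads, or 37.5, 162 and 97.8 RPM. It followed the same order as HMOX1 with smaller ratios. BLVRB was 4.32 times as high in A549 as in HBE (4.06 to 4.59, log2 ratio 2.11) and 2.61 times as high in H1299 as in HBE (2.44 to 2.79, log2 ratio 1.38), and the latter was no longer called with TMM factors, at 2.03 (1.90 to 2.17). Between H1299 and A549 it was 1.65 times lower (1.58 to 1.73). BLVRA, the main biliverdin reductase of adult tissues, had 1101, 1200 and 562 reads. BLVRB reads per BLVRA read were 1.18 (HBE), 4.22 (A549) and 4.96 (H1299), and per coding length 1.69, 6.07 and 7.12. BLVRB was above BLVRA in each line on both scales, by more in the cancer lines.

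FECH, which inserts iron into protoporphyrin (chr18:55211609-55253964), had 687 (HBE), 883 (A549) and 488 (H1299) reads, or 19.9, 28.2 and 17.1 RPM. Its ratio was 1.42 (1.28 to 1.57) in A549 against HBE and 0.861 (0.765 to 0.968) in H1299 against HBE, and neither was called. HMOX1 reads per FECH read were 0.122, 1.67 and 0.754, so on reads HMOX1 was below FECH in HBE and H1299 and above it in A549. In H1299 this direction depended on length, at 1.11 per coding length and 3.43 per transcript length. The main FECH row had 2.14, 3.14 and 1.87 RPKM over a transcript whose 3′UTR takes up most of its length, below the 95th percentile of olfactory receptors in each line.

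Erythroid cells and macrophages handle large amounts of heme and iron, and most of their markers were low in all 3 libraries. Of 9 erythroid genes, 0 were above the 95th percentile of olfactory receptors in any line, with a summed level of 17.0 RPM (HBE), 25.4 (A549) and 23.7 (H1299), and HBB had 18, 15 and 27 reads. Of 7 macrophage genes, 2 were above it in each line, with summed levels of 67.0, 96.5 and 99.8 RPM. The sums were higher in A549 and H1299 than in HBE, as was the median coding gene, by 0.35 and 0.38 on the log2 scale. The labels name a single cell line for each library, and the part of such cells in the ratios of HMOX1 was not tested.

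Read together, 3 of the 10 genes were called higher and 0 lower in A549 than in HBE. The higher ones were FTL, HMOX1 and BLVRB, where 6.15% of the 18699 coding genes tested were called higher and 3.36% lower. The median log2 ratio of the 10 genes was 0.39, beside 0.35 for all coding genes, so the list as a whole lay at the median of the library. In H1299 against HBE, 2 genes were higher (HMOX1 and BLVRB) and 1 was lower (FTH1), where 8.05% of 18648 coding genes were called higher and 4.93% lower, and the median was -0.39 beside 0.38. In H1299 against A549, 0 genes were higher and 3 were lower (FTL, FTH1 and HMOX1), where 4.10% of 18712 coding genes were called higher and 4.83% lower, and the median was -0.85 beside 0.02. The comparisons share libraries, so they are not independent of each other. With TMM factors the split of all calls changed, from 1150 higher and 629 lower to 637 and 1053 in A549 against HBE, from 1501 and 919 to 786 and 1474 in H1299 against HBE, and from 767 and 903 to 722 and 936 in H1299 against A549.

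**Figure D2:**
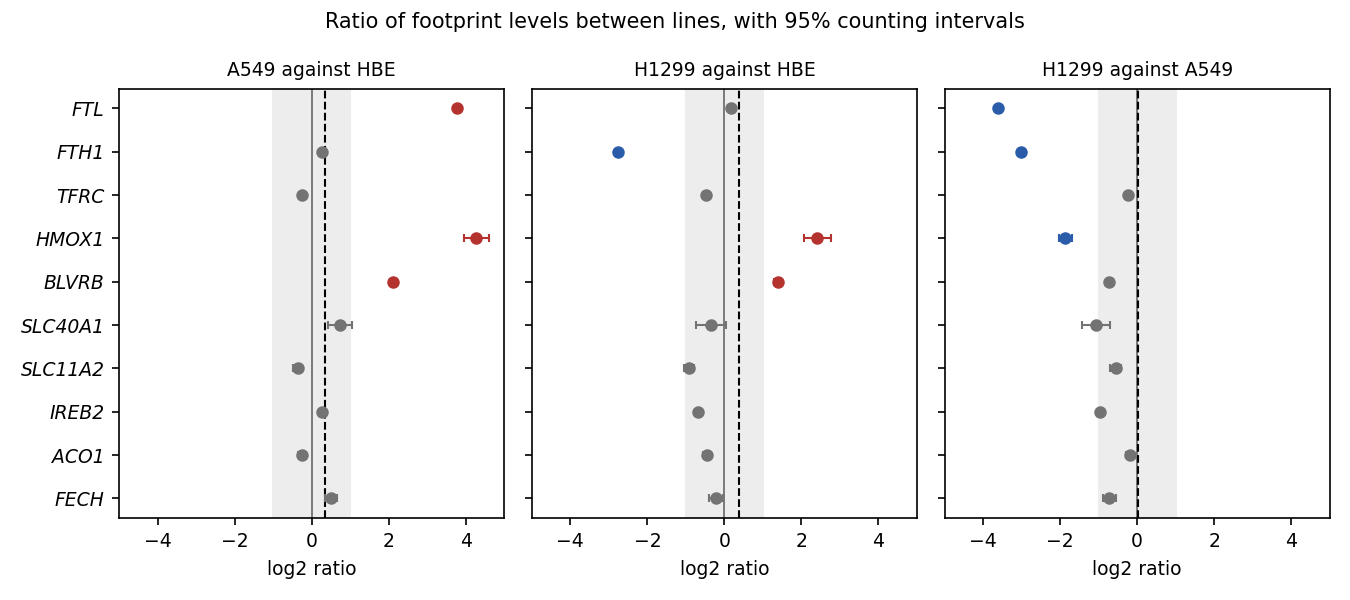
Ratio of footprint levels between lines for the 10 genes, on a log2 axis, with 95% counting intervals. Red and blue points were called higher and lower, grey points were not called, the grey band spans ratios within 2-fold, and the dashed line is the median coding gene (0.35, 0.38 and 0.02). FTL, HMOX1 and BLVRB lie right of the band in A549 against HBE, and FTL, FTH1 and HMOX1 lie left of it in H1299 against A549. The grey point of SLC40A1 in H1299 against A549 (log2 ratio -1.06) is also left of the band, with an interval that reaches into it.

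Together the 10 genes took 0.108% (HBE), 0.209% (A549) and 0.0593% (H1299) of NM reads. FTL and FTH1 made up 50.4%, 67.4% and 23.6% of the reads of the 10 genes. Without ferritin the other 8 genes had 536, 682 and 453 RPM, so most of the distance between the lines came from the ferritin chains.

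Ferritin and TFRC stand at opposite ends of the IRE system. Reads of FTL plus FTH1 per TFRC read were 2.18 (2.12 to 2.23) in HBE, whereas A549 had 6.69 (6.52 to 6.86) and H1299 had 0.775 (0.744 to 0.808). Ferritin footprints outnumbered those of the receptor in HBE and A549, and in H1299 the receptor, whose coding sequence of 2280 nt is longer, had more reads. Per coding length ferritin was above TFRC in each line, by 9.09, 28.5 and 3.29 times. The intervals of the ratios did not overlap between lines. TFRC differed less between the lines than ferritin did, so these ratios mostly followed ferritin. SLC40A1 reads per TFRC read were 0.0167, 0.0327 and 0.0183, highest in A549 as ferritin per TFRC was.

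**Figure D3:**
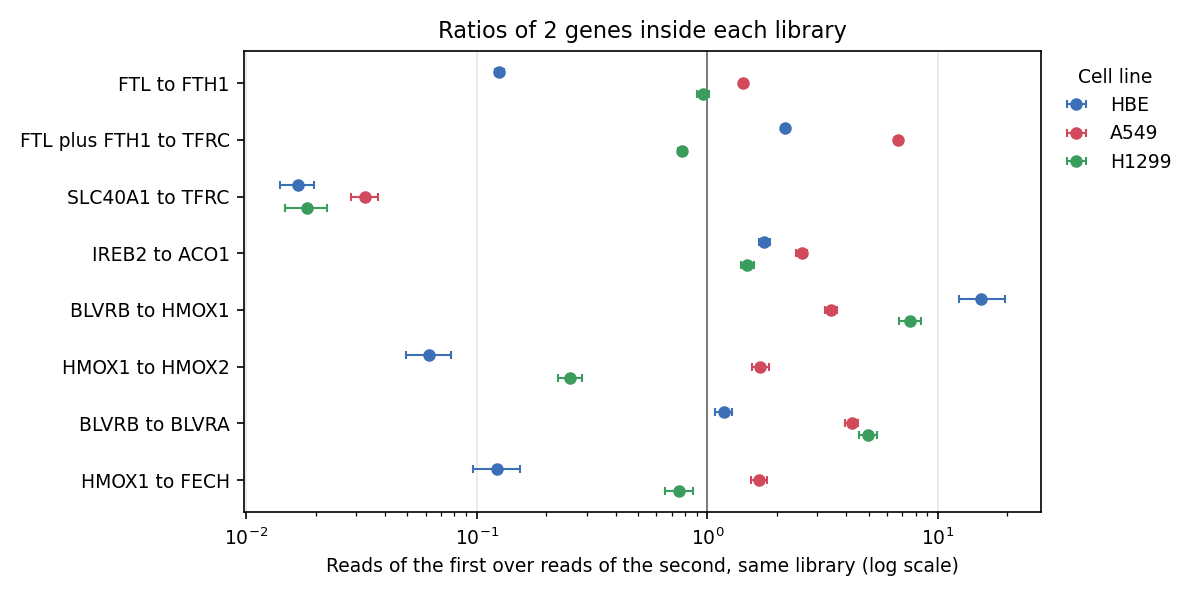
Reads of one gene over those of another within the same library, on a log axis, with 95% counting intervals, for the 3 lines. FTL per FTH1 read is 0.125 (HBE), 1.43 (A549) and 0.957 (H1299), and HMOX1 per HMOX2 read exceeds 1 only in A549, at 1.70.

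Levels of different genes were compared per kilobase of coding sequence. In HBE the order was FTH1 (880 RPM per kb), FTL (115), TFRC (109.5), BLVRB (60.7), IREB2 (39.8), SLC11A2 (25.0), ACO1 (24.4), FECH (15.7), HMOX1 (2.82) and SLC40A1 (2.44). The intervals of FTL and TFRC overlapped, as did those of SLC11A2 and ACO1 and those of HMOX1 and SLC40A1. In A549 FTL led with 1584 RPM per kb, before FTH1 (1059), BLVRB (262), TFRC (92.7) and HMOX1 (54.6). HMOX1 held the fifth place there and the ninth in HBE. IREB2 (48.3), FECH (22.2), ACO1 (20.4) and SLC11A2 (19.4) came after it, and the intervals of FECH and ACO1 overlapped, as did those of ACO1 and SLC11A2. In H1299 BLVRB led with 158 RPM per kb, and FTL and FTH1 followed at 130.6 and 130.5 with overlapping intervals, before TFRC (79.3), IREB2 (24.6), ACO1 (17.8), HMOX1 (15.0), FECH (13.5) and SLC11A2 (13.2). The intervals of HMOX1 and FECH overlapped, as did those of FECH and SLC11A2. SLC40A1 was last in every line, at 4.03 in A549 and 1.93 in H1299.

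The other genes of the pathway were described by 7 lists with 101 genes. In A549 against HBE 7 were called higher and 4 lower, which is 6.93% and 3.96% of 101 tested, beside 6.15% and 3.36% of all coding genes. In H1299 against HBE 5 were higher and 10 lower, or 5.05% and 10.1% of 99, beside 8.05% and 4.93%. In H1299 against A549 2 were higher and 7 lower, or 2% and 7% of 100, beside 4.10% and 4.83%. The shares in A549 against HBE were near the background. With TMM factors 5 of the 7 and 2 of the 5 higher calls against HBE held, and SCARA5 and CDC42BPA in A549 and MFI2, PPOX and HPX in H1299 were not called. All 4, 10 and 7 lower calls and both higher calls of H1299 against A549 held under TMM. Further lower calls were gained, so that under TMM A549 had 5 higher and 9 lower than HBE, where 3.41% and 5.63% of all coding genes were called, and H1299 had 2 higher and 15 lower than HBE, where 4.21% and 7.90% were. Against A549, H1299 had 2 higher and 8 lower under TMM, where 3.86% and 5.002% of all coding genes were called. MFI2 in A549 against HBE and HFE in H1299 against A549 missed the call under 1 of 4 other scalings.

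Among the 21 genes of iron uptake, transport and export, the largest ratios were those of LCN2, a siderophore-binding lipocalin, with 4954 (HBE), 70 (A549) and 30 (H1299) reads. It was 64.2 times lower in A549 (50.7 to 82.5) and 136 times lower in H1299 (95.3 to 202) than in HBE. STEAP4, a ferrireductase, and HEPHL1, a ferroxidase, were also high in HBE, by 5.83 and 3.33 times over A549 and by 5.34 and 3.46 times over H1299. The 5 basal epithelial markers moved the same way, with 54477, 2090 and 716 reads in HBE, A549 and H1299, and their part in these ratios was not tested. In A549 the metal transporter SLC39A14 (3.18 times), the ferritin receptor SCARA5 (3.11) and MFI2, which encodes melanotransferrin (2.87), were above HBE. The ferrireductase STEAP1 was 3.99 times as high in H1299 as in HBE. The ferroxidase CP was 5.52 times lower and HFE, a partner of the transferrin receptor, was 2.37 times lower in H1299 than in A549.

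Of 14 heme synthesis genes, ALAS1, the rate-limiting enzyme outside erythroid cells, had 429 (HBE), 1132 (A549) and 1046 (H1299) reads. It was 2.91 times as high in A549 (2.60 to 3.26) and 2.95 times as high in H1299 (2.64 to 3.31) as in HBE, where the ratios of FECH, at the other end of the pathway, were 1.42 and 0.861. ABCB6, a porphyrin transporter, was 3.57 times as high in A549 as in HBE and 6.14 times lower in H1299 than in A549. UROD was 2.96 times as high in H1299 as in A549, and PPOX was 2.50 times as high in H1299 as in HBE.

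Of 13 genes of heme breakdown, uptake and export, ABCG2, which exports porphyrins and drugs, had 661 (HBE), 2469 (A549) and 602 (H1299) reads, 4.12 times as high in A549 as in HBE and 3.73 times lower in H1299 than in A549. Haptoglobin (HP), which binds free hemoglobin, was 5.31 and 5.12 times lower in A549 and H1299 than in HBE. Hemopexin (HPX) was 2.58 times as high in H1299 as in HBE, and the heme exporter FLVCR1 was 2.49 times lower in H1299 than in A549.

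EPAS1 (HIF2-alpha), whose mRNA also has a known IRE in the 5′UTR, had 3026 (HBE), 3096 (A549) and 237 (H1299) reads. It was 10.5 times lower in H1299 than in HBE (9.23 to 12.1) and 11.9 times lower than in A549 (10.4 to 13.6), a pattern across the lines like that of FTH1. CDC42BPA, reported to carry an IRE in its 3′UTR, was 2.51 times as high in A549 as in HBE.

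Among 9 transcription factors of the heme and oxidative stress response, 0 were called in A549 against HBE. Of all coding genes, 6.15% were called higher and 3.36% lower there. HIF1A was called lower in that comparison with TMM, median-of-ratios or upper quartile factors and with the interval beyond 1.5. NFE2L2, which encodes NRF2, had 3990, 2418 and 1450 reads and was 2.27 times lower in H1299 than in HBE (2.14 to 2.41). HIF1A was 6.45 times lower in H1299 than in HBE and 3.50 times lower than in A549, and MAFK was 2.34 times lower in H1299 than in HBE. Footprints on NFE2L2 were highest in HBE. Activity of the factor was not measured, and its part in the ratios of HMOX1 and FTL was not tested.

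Of 9 genes of ferritin handling and mitochondrial iron, 0 were called in any comparison, and of 26 iron-sulfur cluster genes 1 was called once. Of all coding genes, 3.36 to 8.05% were called per direction and comparison, so 0 of 9 does not set that list apart. With TMM or median-of-ratios factors the ferritin receptor for autophagy NCOA4, with 5090, 2527 and 2018 reads, was called lower in both cancer lines than in HBE, and NFS1, NDUFAB1 and FAM96A were called lower in A549 than in HBE. These genes were named after their values were seen. The single call was FAM96A, 2.22 times lower in H1299 than in HBE, whose row had 545490, 251459 and 202726 reads. Whether other RNA was counted on this row was not tested.

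**Figure D4:**
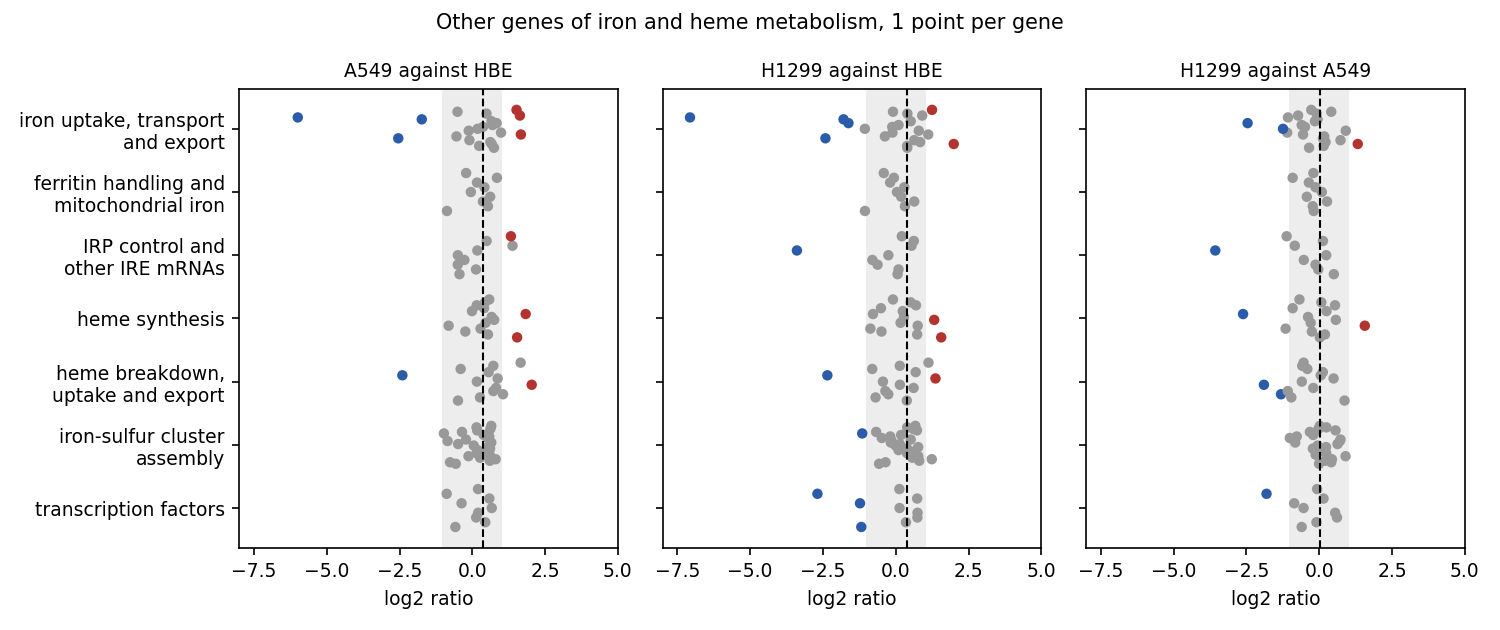
Log2 ratio of footprint levels for the other 101 genes of iron and heme metabolism, 1 point per gene, by list (rows) and comparison (panels), IRP being the iron regulatory proteins. Red and blue points were called higher and lower, the grey band spans ratios within 2-fold, and the dashed line is the median coding gene. The farthest point is LCN2, 64.2 and 136 times lower in A549 and H1299 than in HBE.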

How the data were processed

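Ribosome profiling libraries of the HBE, A549 and H1299 lines were analysed, with 1 library for each. After removal of rRNA by Ribo-Zero and biotinylated probes, libraries were prepared with the NEBNext small RNA set and sequenced by Illumina. The authors removed adapters, truncated reads at the first base of low quality and mapped them with FANSe2 to RefSeq RNA. The submitters' processing notes name hg19. The deposited read counts are whole numbers per transcript that the authors did not normalize. The deposited RPKM values were computed by the authors from the count, the whole transcript length and the sum of all rows. How reads that match several rows equally were placed is not described in the sources used here, and a row therefore need not reflect its isoform. Footprints on UTRs are included in the counts.

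The 10 members and all gene lists were chosen with earlier results of these data known. Counts were summed per gene over all its rows and divided by the NM reads of the library. Ratios carry exact 95% Clopper-Pearson intervals on the share of the 2 counts, and log2 ratios have 0.5 read added to each count. Called genes have an interval wholly beyond 2 and at least 20 reads over both libraries. Of each list, up to 3 called genes per comparison and direction with the largest ratio were named. The 329 rows without a symbol included no member. The call rule was tested on simulated Poisson counts with known scaling. These hold no variation between cultures, so the test covers counting error only. Alternatives were TMM, upper quartile and median-of-ratios factors (edgeR 4.0.16 in R 4.3.3 for the factors), other thresholds and added reads, NM rows only, and leaving out the 10 NM rows with most reads. Gene positions, coding lengths and IREs came from GENCODE 44 lifted to GRCh37, and intervals from scipy 1.17.1. Protein sequences were not used here.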

Additional observations from a re-analysis of the deposited data

How the results depend on the processing

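No paired analysis was possible because there was a single library for every line and nothing was tested. With TMM or median-of-ratios factors, 1 gene (HMOX1) in place of 2 was called higher and 2 (FTH1 and SLC11A2) in place of 1 were called lower in H1299 against HBE. Of all coding genes, 4.21% were called higher and 7.90% lower there with TMM, and 4.13% and 8.05% with median-of-ratios factors. With the interval required to lie beyond 4, 1 gene (HMOX1) was higher in that comparison, where 1.52% of all coding genes were. With the interval beyond 1.5, 3 genes (FTH1, SLC11A2 and IREB2) were lower in H1299 against HBE, and 6 in place of 3 (BLVRB, SLC40A1 and IREB2 besides FTL, FTH1 and HMOX1) in H1299 against A549. Of all coding genes, 8.59% and 9.43% were called lower in these comparisons at 1.5, beside 4.93% and 4.83% at 2. These alternatives move the scale or the threshold itself. Under the 11 settings tried, the other 59 of 66 counts of the 10 genes stayed within 1.5 times the value reported. Of 330 log2 ratios of the 10 genes, 69 moved beyond their interval, 6 changed sign without having been called, and 0 called ratios reversed. Settings that change only the threshold or the minimum of reads cannot move a log2 ratio. A change of the added reads cannot move a call. These totals, and those of the pathway lists below, therefore include values that were fixed in advance.

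FTL per FTH1 was 0.175 (HBE), 2.004 (A549) and 1.34 (H1299) per transcript length, and 1.496 in A549 per coding length. FTL plus FTH1 per TFRC was 9.57, 34.8 and 3.90 in HBE, A549 and H1299 per transcript length, and 9.09, 28.5 and 3.29 per coding length. These ratios move by the lengths alone, and the order of the lines is the same. Of the 54 values of the other ratios within a library, 32 moved, and of 462 counts of the pathway lists, 78. Depth limits SLC40A1 (94 to 216 reads) and HMOX1 in HBE (84 reads), and differences between cultures of a line could not be measured.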
